A study of Mus musculus with 16 samples.

Results

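The immunoglobulin genes were taken from a mouse RNA-seq study of BCR-ABL+, Arf-/- B-cell acute lymphoblastic leukemia (B-ALL), a cancer of early B cells. The leukemia cells carried the red fluorescent protein mCherry, and each tail vein injection delivered 500000 of them to a wild-type (WT) C57BL/6J host or to an IL6KO C57BL/6J host, which lacks interleukin 6. Hosts were purchased at 6 to 8 weeks of age and received no drug, and marrow from femur and tibia was taken 8 days after injection, depleted of red blood cells and sorted into mCherry+ cells ("tumor") and mCherry- cells ("stroma"). The design gave 4 groups of 4 libraries (tumor WT, tumor IL6KO, stroma WT and stroma IL6KO), and the groups compared differed by host genotype. Both sexes were used in the study, and the labels give no sex, litter or batch for a library. All hosts carried the same Il6-intact leukemia, the stroma gate held every live mCherry-negative marrow cell, and the labels number the libraries without naming the animals, so p-values measure the spread between these libraries.

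Members were the genes whose symbol begins as an immunoglobulin V, D, J or constant gene does, plus Jchain. They made up 56 of the 15080 genes listed in the tumor table and 5 of the 13344 in the stroma table, 56 of the 16612 genes listed in either. The symbol column of the files named 2 of these, so symbols were taken by Ensembl gene identifier. Ighmbp2, a helicase gene on chromosome 19, matched by its first letters alone and was left out of every count, sum and share below, which left 55 genes in tumor and 4 in stroma. In tumor these were 45 of 185 annotated heavy chain V genes, 5 of 8 heavy chain constant genes, 3 of 160 kappa V genes, the kappa constant gene Igkc and Jchain. In stroma they were Ighm, Igha, Ighd and Igkc. No D, J or lambda gene was listed, and those were not analysed here. A mean normalized count above 10 was reached by 46 of the 55 tumor genes and by all 4 stroma genes. Il6 was listed in neither table, so the host genotype could not be checked from it.

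An immunoglobulin is built from heavy and light chains, and each chain joins a variable (V) region to a constant region. B-cell precursors cut and join V, D and J segments of the heavy locus first and the kappa or lambda light chain locus afterwards. A cell that has finished only the heavy chain pairs its mu chain, encoded by Ighm, with the surrogate light chain proteins Igll1 and Vpreb as the pre-B cell receptor. Unrearranged V genes are also transcribed at low level before joining. Mature B cells splice the same heavy chain transcript to Ighm or Ighd, and activated B cells switch to Ighg, Ighe or Igha, the genes of IgG, IgE and IgA. Jchain links IgM and IgA into polymers and is abundant in plasma cells.

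The V genes of a family differ at few bases, so which gene a 75-nt read is credited to rests on small differences. The last 75 coding bases of the leading V genes are shown with their nearest listed relatives because this is the length of a read and the part next to the joining site. They come from GENCODE vM21 transcripts (GRCm38, the mm10 build), are written 5′ to 3′ on the coding strand, and capitals mark bases that differ from the first gene of each set. The Ighv14 set opens with Ighv14-1 (chr12:113931953-113932382, minus strand), the most abundant V gene in these libraries.
Ighv14-1: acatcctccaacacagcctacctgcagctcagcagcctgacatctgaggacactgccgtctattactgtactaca
Ighv14-2: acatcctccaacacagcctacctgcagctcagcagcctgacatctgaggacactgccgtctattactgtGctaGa
Ighv14-3: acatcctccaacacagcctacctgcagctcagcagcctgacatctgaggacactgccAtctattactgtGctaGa
Ighv14-4: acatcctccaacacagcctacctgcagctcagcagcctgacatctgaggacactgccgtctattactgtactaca
Ighv14-1 and Ighv14-4 were identical over this stretch (0 differences), and Ighv14-2 differed at 2 bases and Ighv14-3 at 3. Over the whole annotated transcript, 93.1% of the 75-nt stretches of Ighv14-1 occurred in no other annotated gene.

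The second set opens with Ighv1-7 (chr12:114538495-114538965, minus strand), which ranked second.
Ighv1-7: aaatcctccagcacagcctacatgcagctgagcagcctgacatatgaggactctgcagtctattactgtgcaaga
Ighv1-4: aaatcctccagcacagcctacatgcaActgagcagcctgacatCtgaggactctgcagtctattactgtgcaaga
Ighv1-5: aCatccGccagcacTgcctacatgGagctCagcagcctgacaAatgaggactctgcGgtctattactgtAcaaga
Ighv1-4 differed at 2 bases and Ighv1-5 at 8, and 76.8% of the stretches of Ighv1-7 were its own.

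The third set holds Ighv5-4 (chr12:113597446-113597977, minus strand) and Ighv5-6, which were each high in a single library, with their relative Ighv5-12, which was not.
Ighv5-4: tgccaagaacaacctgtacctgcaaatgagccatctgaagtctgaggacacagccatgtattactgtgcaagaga
Ighv5-6: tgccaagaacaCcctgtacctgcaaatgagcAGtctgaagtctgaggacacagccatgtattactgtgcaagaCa
Ighv5-12: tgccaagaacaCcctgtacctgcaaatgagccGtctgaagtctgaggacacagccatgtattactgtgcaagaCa
The leading kappa V gene was Igkv14-111 (chr6:68256389-68256869, plus strand), all of whose 75-nt stretches (100%) were its own.
Igkv14-111: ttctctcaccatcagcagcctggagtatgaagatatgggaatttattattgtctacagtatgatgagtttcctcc

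Values are normalized counts, that is, estimated read counts per gene divided by the authors' scaling factor for each library. They summed to between 38817792 and 55592959 per tumor library and between 8805689 and 44191950 per stroma library, and the 2 tables were scaled separately, so levels were not compared between them. In tumor the V gene values fell on whole multiples of a step, the worth of 1 read: between 95.2% and 100% of low values of V genes with a single annotated transcript lay within 0.05 of a whole read. That step was 1.58, 1.49, 0.989 and 1.08 normalized counts in WT and 0.604, 1.32, 0.792 and 0.633 in IL6KO. The V genes together therefore rested on 1731 to 3903 reads per library, with more reads per normalized count in 3 of the 4 IL6KO libraries than in any WT library.

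Tumor cells expressed the heavy chain of the mu class predominantly. Ighm read 26512, 27110, 25181 and 23579 normalized counts in WT and 27876, 24572, 25739 and 26704 in IL6KO, which placed it between rank 133 and rank 177 of 15080 genes. The groups overlapped, and the mean of 25596 ± 1568 (SD, n = 4) in WT and 26223 ± 1405 in IL6KO differed by 0.035 on the log2 scale (SE 0.066, adjusted p = 0.738), a difference whose sign turned with the scaling (-0.056 after quantile normalization). Per kb of transcript, Ighm made up 94.2% ± 1.14 of the heavy constant signal in WT and 95.7% ± 0.28 in IL6KO. These are bulk libraries, in which fewer cells of a type and less RNA per cell cannot be told apart.

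**Figure D1:**
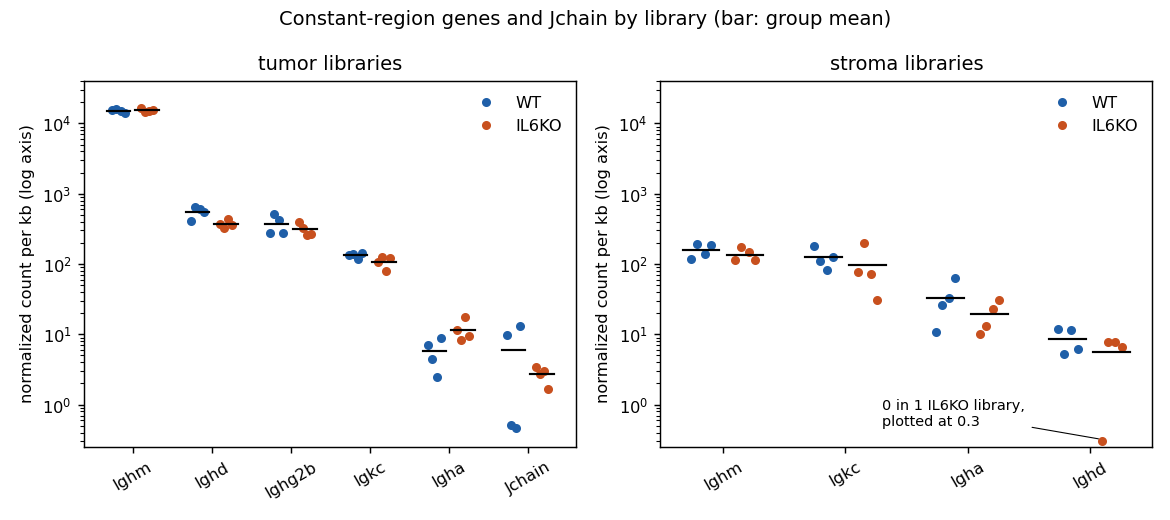
Normalized count per kb of the longest annotated transcript (log axis) of the listed constant-region genes and Jchain in each library, with WT in blue, IL6KO in orange and the group mean as a bar. Ighg1 is not drawn. The left panel holds tumor, where Ighm stands far above the rest, and the right panel stroma, where Ighm and Igkc lie side by side. The panels were scaled separately.

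Ighd, which mature B cells splice from the transcript that also gives Ighm, was lower in IL6KO tumor. It read 741, 1169, 1105 and 978 normalized counts in WT and 659, 579, 799 and 640 in IL6KO. The highest IL6KO library overlapped the lowest WT library. The log2 fold change was -0.56 (SE 0.15, adjusted p = 0.0307, limma). Left out singly, 6 of the 8 libraries (WT replicates 2, 3 and 4 and IL6KO replicates 1, 2 and 4) took this call away, with adjusted p between 0.0104 and 0.0823 over the 8 fits, and it was also lost without a trend of variance on level (adjusted p from 0.0268 to 0.0586 over 8 alternatives). Set against Ighm within each library and per kb, Ighd ran at 2.63 to 4.12 per 100 Ighm in WT and 2.22 to 2.92 in IL6KO.

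Ighg2b, an IgG constant gene, was the most abundant switched class in tumor. It read 712, 1303, 1085 and 716 normalized counts in WT and 1021, 838, 660 and 674 in IL6KO. Its log2 fold change of -0.23 (SE 0.22, adjusted p = 0.486) was within the spread between libraries. Over its transcripts 99.2% of 75-nt stretches were its own, and the others were shared with Ighg2c and Ighg3.

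Igha, the IgA gene, was near the floor in tumor. It read 18.0, 11.4, 6.38 and 22.8 normalized counts in WT and 29.0, 20.9, 44.2 and 24.3 in IL6KO. The groups overlapped, and the log2 fold change of 1.04 (SE 0.43) had an adjusted p of 0.116. Ighg1, another IgG gene, was at 0 in WT replicates 1 and 4 and IL6KO replicates 1 and 3, at 1.43 and 1.37 in the other WT libraries, and at 10.6 and 34.0 in IL6KO replicates 2 and 4. It fell short of the mean needed for testing. Ighe and the other IgG genes were not analysed here.

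Igkc, the constant region shared by all kappa light chains, was scarce in tumor. It read 70.7, 74.5, 63.4 and 76.5 normalized counts in WT and 56.2, 66.0, 42.8 and 65.0 in IL6KO. Lowest and highest values of the groups overlapped, and the log2 fold change was -0.32 (SE 0.20, adjusted p = 0.287). Per kb, Igkc stood at 0.89 ± 0.10 per 100 Ighm in WT and 0.70 ± 0.14 in IL6KO. A gene on the same strand, Gm30211, overlaps Igkc. Jchain read 22.7, 1.22, 1.10 and 30.5 in WT and 7.99, 6.41, 6.997 and 3.90 in IL6KO, so the WT libraries spanned the IL6KO range on each side and no direction was given.

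Heavy chain V transcripts of many genes were present in tumor rather than those of a single gene. The 45 listed genes came from 10 of 16 annotated families, and 5 of them were annotated pseudogenes. Summed per kb, they came to 45.7 ± 1.14 per 100 Ighm in WT and 41.0 ± 3.37 in IL6KO. Without division by length the sums were 9.93 ± 0.19 and 8.84 ± 0.73 per 100 Ighm. Ighv14-1 and Ighv1-7 together held 41.6% ± 2.91 of the heavy V signal in WT and 47.7% ± 1.84 in IL6KO, and the leading 5 genes held 56.7% ± 2.30 and 63.6% ± 1.80. The other 40 genes had mean normalized counts from 6.97 to 72.9, and 35 of them lay under 50.

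**Figure D2:**
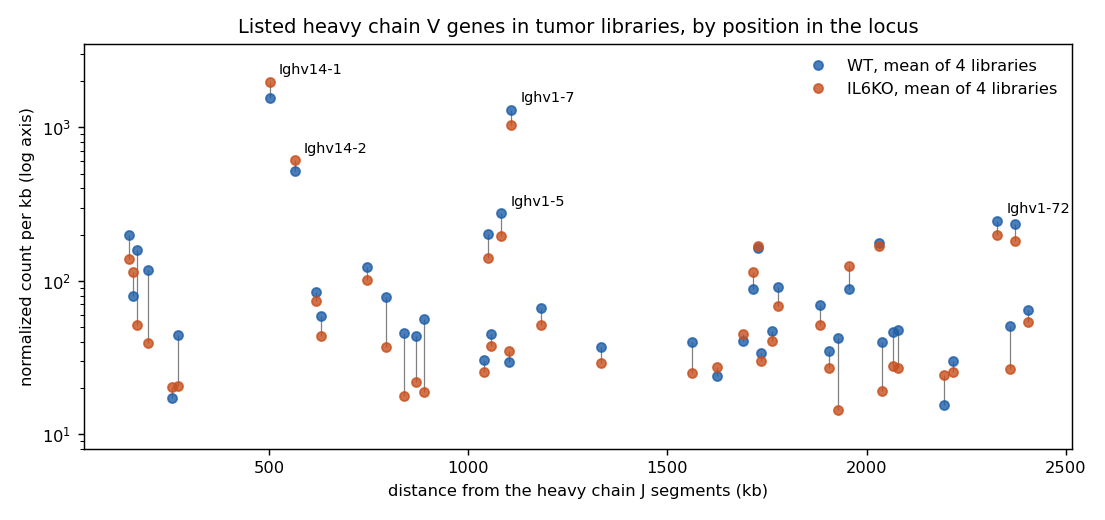
Mean normalized count per kb (log axis) of the 45 listed heavy chain V genes in tumor libraries against their distance in kb from the heavy chain J segments, with WT in blue, IL6KO in orange and a grey line joining each gene's values. Ighv14-1, Ighv14-2 and Ighv1-7 stand above the other genes, which spread over the whole locus.

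Listed V genes lay from 148.7 to 2404.1 kb from the J segments. The stretch from 500 to 1000 kb, with 9 listed genes of 36 annotated and both Ighv14-1 and Ighv14-2, held 37.3% ± 3.81 of the heavy V signal in WT and 46.0% ± 0.58 in IL6KO. The stretch from 1000 to 1500 kb, with 8 of 51 and Ighv1-7, held 28.9% ± 0.58 and 24.4% ± 0.26. The nearest 500 kb held 8.87% ± 2.55 and 6.05% ± 1.11. The far end of the locus was still represented, and the 10 listed genes between 2000 and 2500 kb held 13.8% ± 1.89 in WT and 11.9% ± 0.78 in IL6KO. By family, in normalized counts, Ighv1 gave 50.7% ± 1.05 of the heavy V signal in WT and 45.9% ± 0.97 in IL6KO, and Ighv14 gave 31.4% ± 3.82 and 41.6% ± 0.63. Ighv5 gave 11.4%, 10.2%, 6.79% and 4.52% in WT and 4.38%, 4.34%, 3.38% and 4.66% in IL6KO, so WT replicate 4 lay within the IL6KO range.

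Ighv14-1 was the leading V gene in 7 of the 8 tumor libraries per kb, and the balance between it and Ighv1-7 differed between the hosts. Ighv14-1 read 467, 548, 551 and 612 normalized counts in WT and 662, 759, 655 and 711 in IL6KO, from 295 to 1124 reads per library. Every IL6KO library was above every WT library. Its log2 fold change was 0.36 (SE 0.11, adjusted p = 0.0399, limma). The call held only without WT replicate 4 when libraries were left out singly, and was lost in the other 7 of 8 fits, with adjusted p from 0.0351 to 0.0993. It was also lost in 2 of 8 alternatives, without a trend of variance on level (adjusted p = 0.0522) and with the replicate block (0.0566), over a range of 0.0336 to 0.0566. Its share of the heavy V signal was 19.1%, 21.5%, 23.2% and 26.6% in WT and 30.15%, 32.6%, 30.7% and 32.3% in IL6KO.

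Ighv1-7 moved the other way. It read 560, 479, 526 and 464 normalized counts in WT and 383, 443, 372 and 402 in IL6KO. Every IL6KO library was below every WT library. The log2 fold change was -0.34 (SE 0.11, adjusted p = 0.0463), and the call held only without IL6KO replicate 2 among the 8 fits with a library left out (adjusted p from 0.0262 to 0.114). Quantile normalization (adjusted p = 0.0604) and the replicate block (0.0975) ended it too, over a range of 0.0388 to 0.0975 in 8 alternatives. Per kb, Ighv14-1 stood at 0.92, 1.26, 1.16 and 1.46 times Ighv1-7 in WT and at 1.91, 1.89, 1.95 and 1.96 times in IL6KO. This ratio within a library needs no scaling between libraries. Its groups did not overlap, which already follows from the values of both genes and is no separate support.

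Ighv14-2, of the same family and the nearest listed gene to Ighv14-1, read 191, 165, 177 and 198 normalized counts in WT and 235, 215, 199 and 206 in IL6KO. All IL6KO libraries were again the higher ones, by 198.8 against 198.0 at the closest, and the log2 fold change of 0.22 (SE 0.12) did not pass the test (adjusted p = 0.227). The other family members, Ighv14-3 and Ighv14-4, had log2 fold changes of -0.40 (SE 0.39) and -0.28 (SE 0.26), with overlapping groups and adjusted p of 0.503 and 0.463. Of the 4 genes of this family, then, only Ighv14-1 passed, and a test of its difference from the others was not made.

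Ighv1-5 read 85.1, 142, 108 and 100 normalized counts in WT and 80.6, 84.8, 72.3 and 70.5 in IL6KO. The groups did not overlap but came within a count of each other, and the log2 fold change of -0.47 (SE 0.19) had an adjusted p of 0.111. Ighv1-72 read 109, 135, 111 and 34.4 in WT and 77.3, 98.8, 70.5 and 68.4 in IL6KO, with WT replicate 4 below all the rest. No more than 28.3% of its 75-nt stretches were its own, the lowest among the listed V genes, and its log2 fold change of -0.15 (SE 0.39, adjusted p = 0.811) turned to 0.040 after quantile normalization.

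**Figure D3:**
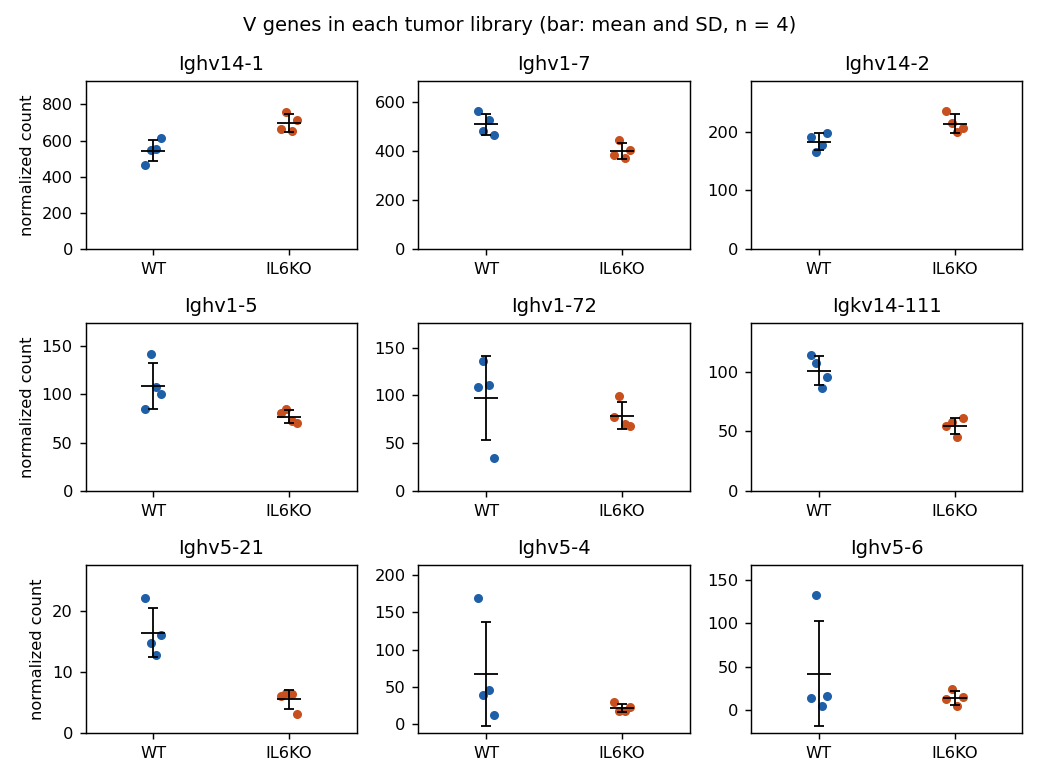
Normalized counts of 9 V genes in each of the 4 WT (blue) and 4 IL6KO (orange) tumor libraries, with mean and SD as black bars. Ighv14-1 and Ighv14-2 are higher and Ighv1-7, Ighv1-5, Igkv14-111 and Ighv5-21 lower in every IL6KO library, while Ighv5-4 and Ighv5-6 are each set by 1 WT library.

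A pair of Ighv5 genes, named after their values were seen, were each set by a single library. Ighv5-4 read 169.5 normalized counts in WT replicate 1, from about 107 reads, against 39.7, 45.6 and 12.9 in the other WT libraries and 17.2 to 29.6 in IL6KO. Ighv5-6 read 132 in WT replicate 2, from 89 reads (95% Poisson interval 106.4 to 163, counting error only), against 14.2, 3.96 and 16.1 in the other WT libraries and 3.96 to 23.7 in IL6KO. Neither passed the test, with log2 fold changes of -1.04 (SE 0.63, adjusted p = 0.271) and -0.68 (SE 0.91, adjusted p = 0.631).

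The kappa V gene Igkv14-111 gave the firmest difference among the immunoglobulin genes. It read 114, 107, 86.1 and 95.8 normalized counts in WT (101 ± 12.3, SD, n = 4) and 54.3, 58.0, 45.2 and 60.8 in IL6KO (54.6 ± 6.80). The groups did not overlap. The log2 fold change was -0.87 (SE 0.18, adjusted p = 0.0117, limma). It stayed under the threshold in all 8 alternatives (adjusted p from 0.0112 to 0.0348) and in all 8 fits with a library left out (0.0134 to 0.0352).

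These values rested on few reads, 72, 72, 87 and 89 in WT and 90, 44, 57 and 96 in IL6KO. The IL6KO libraries thus held similar numbers of reads from this gene as the WT libraries, and the difference appeared after scaling to each library's size. Igkv14-111 made up 79.9% ± 6.97 of the kappa V signal per kb in WT and 76.1% ± 4.07 in IL6KO. Of the other listed kappa V genes, Igkv1-110 had a log2 fold change of -0.73 (SE 0.42, adjusted p = 0.239), and Igkv9-124 read between 1.32 and 19.0 and was below the mean for testing. Kappa V signal per 100 of heavy V, per kb, was 5.01 ± 0.73 in WT and 3.08 ± 0.31 in IL6KO, without overlap. The 3 kappa V genes lie from 2451.3 to 2780.0 kb from the kappa J segments, at the far end of the locus from Igkc.

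The other gene that passed was Ighv5-21, an annotated pseudogene. It read 22.1, 14.9, 12.9 and 16.1 normalized counts in WT and 6.04, 6.59, 6.34 and 3.17 in IL6KO. The groups did not overlap, and the log2 fold change was -1.44 (SE 0.42, adjusted p = 0.0390). Its mean was 16.5 in WT but 5.53 in IL6KO, so it passed the filter of a mean above 10 only through the WT libraries. It rested on 10 to 15 reads per WT library and 5 to 10 per IL6KO library, and when libraries were left out singly the call held only without IL6KO replicate 2 (adjusted p from 0.0429 to 0.0983). Without WT replicate 1 its mean no longer passed the filter, and quantile normalization (adjusted p = 0.1004) and the replicate block (0.0861) ended the call, over a range of 0.0138 to 0.1004 in 7 alternatives.

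Counted over the loci, 5 of the 46 immunoglobulin genes tested in tumor passed an adjusted p of 0.05, beside 19.8% of all 14493 genes tested. Ighv14-1 was the 1 that rose (10.6% of all genes), and 4 fell (9.16% of all genes), namely Ighd, Ighv1-7, Ighv5-21 and Igkv14-111. Of these, Ighv5-21 entered the test only through its WT values. Groups did not overlap for 2 genes that were higher in IL6KO (13.6% of all genes) and for 8 that were lower (12.0% of all genes). The lower ones include Ighv5-21 and Ighv9-4, which passed the filter of a mean above 10 only through WT. The filter thus favoured lower genes in the count without overlap as well. The median log2 fold change was -0.33 over the immunoglobulin genes and -0.0059 over all genes tested. Values were below 0 for 37 of the 46, but for 27 of 46 after quantile normalization, when the median was -0.074. After median centring it was again 37 of 46, with a median of -0.32. Some genes, such as Ighv9-4 (mean 15.4 in WT and 7.62 in IL6KO) and Jchain (13.9 and 6.32), passed the filter of a mean above 10 only through WT. None passed only through IL6KO, so the filter favoured values below 0 in this count. Without the filter, values were below 0 for 41 of 55 (median -0.28), and with a filter at a mean over 50 for 11 of 15 (median -0.32).

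**Figure D4:**
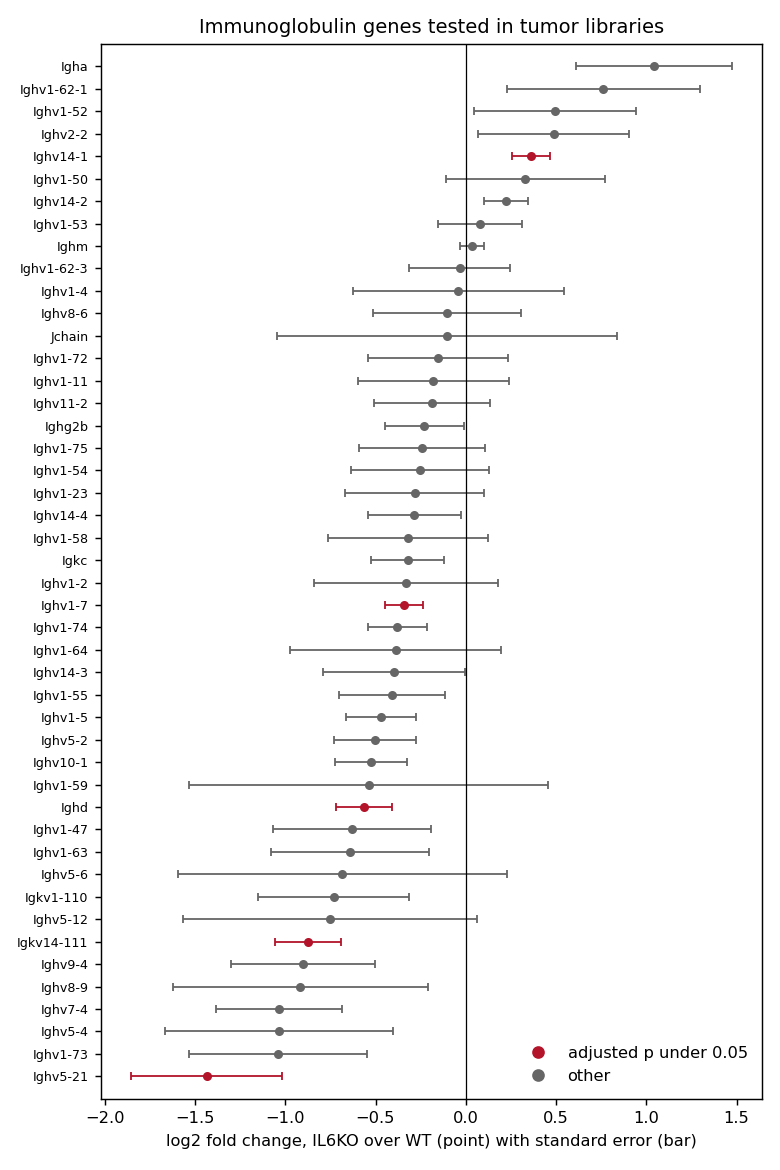
Log2 fold change (IL6KO over WT) with its standard error for the 46 immunoglobulin genes tested in tumor libraries, ordered by size, with the 5 that passed an adjusted p of 0.05 in red. Of the 46, 37 lie left of 0 under the deposited scaling and 27 after quantile normalization.

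The tumor libraries listed all 8 B-lineage identity genes checked, with a sum of 91530 to 100927 normalized counts per library. The highest sum was in IL6KO replicate 2, where Pax5 read 25352 against 17078 to 17475 in the other libraries. Of the 8, 2 fell in IL6KO (9.16% of all genes) and 0 rose (10.6% of all genes), with a median log2 fold change of 0.035. Those that fell were Cd24a (-0.39, SE 0.088, adjusted p = 0.0148, limma) and Ebf1. Marker genes of other cells also differed between the tumor groups. Of 11 tested markers of mature B cells, 4 fell in IL6KO (9.16% of all genes) and none rose (10.6% of all genes), with a median log2 fold change of -0.54. Those with the smallest p were Cd74, the invariant chain of antigen presentation (-0.72, SE 0.12, adjusted p = 0.00507), Fcmr, the IgM Fc receptor (-1.45, SE 0.38, adjusted p = 0.0265), and Cd22, a B-cell inhibitory receptor (-0.54, SE 0.14, adjusted p = 0.0283). The other that fell, named after its value was seen, was the homing receptor gene Ccr7 (-0.78, SE 0.21, adjusted p = 0.0303). The summed level of this list ran from 11148 to 13594 normalized counts in WT and from 9695 to 11371 in IL6KO, and its defining markers Ms4a1, Fcer2a and Cxcr5 were not listed. Ighd and Igkv14-111 fell beside these genes, and the part of mature B cells in those results was not tested.

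Markers of mature neutrophils were higher, with 8 of 12 past the test (10.6% of all genes), led by Ngp (1.93, SE 0.24), Camp (2.06, SE 0.27) and Lcn2 (2.01, SE 0.27), genes of granule proteins, as log2 fold changes. Their sum was 4706 to 5314 normalized counts in WT and 7222 to 17767 in IL6KO, lowest there in replicate 3. Of 10 monocyte and macrophage markers, 3 also rose (10.6% of all genes) and none fell (9.16% of all genes). Those that rose were Fn1 (3.12, SE 0.60), Ly6c2 (2.08, SE 0.28) and Ccr2 (1.22, SE 0.26), with a list median of 0.041. The list summed to 671 to 1004 in WT and 921 to 3374 in IL6KO. Much of that rise was Fn1, which read 85.2 to 159 in WT and 238 to 2042 in IL6KO. The rest of the list did not pass. C1qa (-0.59), Vcam1 (-0.34), Adgre1 (-0.30), Cd68 (-0.15) and C1qb (-0.063) lay below 0, and Csf1r (0.62) and C1qc (0.14) above it. Of 11 tested plasma cell genes, 2 rose (10.6% of all genes) and 1 fell (9.16% of all genes), near those shares, with a median of -0.086. Creld2 and Txndc5, which fold proteins in the endoplasmic reticulum, rose by 0.46 (SE 0.094) and 0.28 (SE 0.063). Slamf7, a surface receptor, fell by 1.22 (SE 0.24) on the log2 scale, all with adjusted p under 0.05. Their part in the immunoglobulin values was not tested.

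Genes of the pre-B cell receptor were far above the light chain genes in the tumor libraries. Of the 6 tested, 2 rose in IL6KO (10.6% of all genes) and none fell (9.16% of all genes), with a median log2 fold change of 0.17. Vpreb1, a subunit of the surrogate light chain, read 17965, 16284, 16186 and 17402 normalized counts in WT and 26370, 21008, 24477 and 26246 in IL6KO, without overlap (log2 fold change 0.53, SE 0.081, adjusted p = 0.00368). Its paralog Vpreb2, whose reads are hard to separate from it, rose by 0.49 (SE 0.098, adjusted p = 0.00921), and Cd79b, the signaling partner of the receptor, had a value of 0.18 (SE 0.059, adjusted p = 0.0630).

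Of 13 genes of V(D)J recombination and end joining, 1 rose (10.6% of all genes) and 3 fell (9.16% of all genes), with a median of -0.13. Hmgb2, a cofactor of the recombinase, rose by 0.68 (SE 0.14, adjusted p = 0.0108). Its paralog Hmgb1 fell by 0.45 (SE 0.060, adjusted p = 0.00214), and Dclre1c, the Artemis nuclease that opens hairpin ends, fell by 0.46 (SE 0.11, adjusted p = 0.0192). The other that fell, named after its value was seen, was the end-joining factor Xrcc4 (-0.49, SE 0.14, adjusted p = 0.0372).

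Among genes of class switching and somatic mutation, Exo1, an exonuclease of mismatch repair, fell by 0.45 (SE 0.11, adjusted p = 0.0196). Of 16 transcription factors of the immunoglobulin loci, Tcf3 (0.36, SE 0.070, adjusted p = 0.00835) and Irf8 (0.38, SE 0.080, adjusted p = 0.0115) rose, and Yy1, which acts in contraction of the heavy locus, fell by 0.67 (SE 0.076, adjusted p = 0.00107). Ebf1 also fell, by 0.30 (SE 0.078, adjusted p = 0.0254). Of the 16, then, 2 rose (10.6% of all genes) and 2 fell (9.16% of all genes), with a median log2 fold change of -0.085. These counts were near the shares over all genes.

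In stroma, a mixed fraction in which erythroid markers summed to 89301 to 422772 normalized counts and B-lineage genes to 2971 to 8866, no V gene was listed. Most of that B-lineage sum was Cd24a, which other marrow cells also express, and the 7 others came to 397 to 1450. Ighm read 203, 323, 239 and 320 normalized counts in WT and 191, 294, 249 and 192 in IL6KO, between rank 2426 and rank 3840 of 13344 genes. The groups overlapped, and the log2 fold change was -0.23 (SE 0.35, adjusted p = 0.877). Igkc, which exceeded Ighm per kb in WT replicate 1 and IL6KO replicate 2, read 95.3, 58.0, 43.2 and 67.3 in WT and 40.7, 107, 38.2 and 16.5 in IL6KO. Its log2 fold change of -0.62 (SE 0.63, adjusted p = 0.791) was again within the spread between libraries.

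Igha read 27.2, 67.4, 84.3 and 159 normalized counts in WT stroma and 25.3, 33.3, 57.5 and 79.2 in IL6KO stroma. Libraries of a group differed widely, and the log2 fold change was -0.66 (SE 0.64, adjusted p = 0.777). Ighd read 21.2, 9.35, 20.6 and 11.02 in WT and 0, 13.9, 14.2 and 12.1 in IL6KO, with a log2 fold change of -1.08 (SE 1.10, adjusted p = 0.791). By limma, 0 of the 4 genes passed in stroma, 0 had an unadjusted p under 0.05, and 0.00820% of all 12202 genes passed. None of the 4 had groups without overlap, which 2.54% of all genes had as higher and 3.25% as lower in IL6KO.

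The make-up of the constant genes differed between the sorted fractions. Within each library and per kb, Igkc stood at 27.4 to 149.8 per 100 Ighm in stroma and at 0.53 to 1.04 in tumor. Igha stood at 7.56 to 33.2 per 100 Ighm in stroma and at 0.017 to 0.115 in tumor. No stroma library fell within the tumor range for either gene. Ighd, by contrast, ran from 0 to 9.83 per 100 Ighm in stroma and from 2.22 to 4.12 in tumor, and those ranges overlapped. Ratios within a library do not depend on how each table was scaled, but they came from separate tables and were given with no test.

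**Figure D5:**
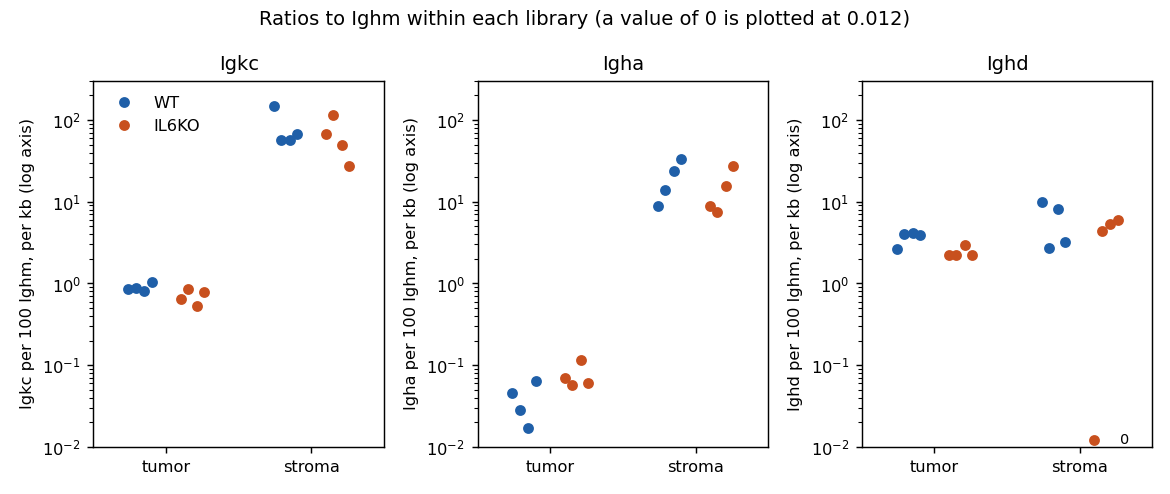
Igkc, Igha and Ighd per 100 Ighm, each per kb of transcript (log axis), within each tumor and stroma library, with WT in blue and IL6KO in orange. Stroma lies above tumor for Igkc and Igha without overlap, and the fractions overlap for Ighd, which was 0 in 1 IL6KO stroma library.

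Surrogate light chain transcripts gave a second ratio, chosen after their values were seen. In normalized counts, Igll1 stood at 88.3 to 106 per 100 Ighm in tumor, 6.86 to 10.6 in WT stroma and 11.1 to 24.3 in IL6KO stroma. Every stroma library was below every tumor library in this ratio. Rag1, a recombinase gene, did not follow it and stood at 35.8 to 48.9 per 100 Ighm in tumor, 51.2 to 83.0 in WT stroma and 13.1 to 53.7 in IL6KO stroma. Both ratios were chosen after the values were seen. Among the other markers in stroma, the mature B cell gene Ms4a1 read 0 to 15.2 normalized counts, and the plasma cell genes Sdc1 and Mzb1 read 1.73 to 26.4 and 0 to 63.9, in overlapping groups. A few others of these lists had groups without overlap, looked for after the values were seen, and none of them was called. Over all genes tested, 2.54% had such groups as higher and 3.25% as lower in IL6KO. The median log2 fold change was -0.75 over the 8 tested mature B cell genes and -0.14 over the 8 tested plasma cell genes. The mature B cell gene Tnfrsf13c, a receptor for the survival factor BAFF, read 33.8 to 85.1 in WT and 0 to 12.1 in IL6KO (log2 fold change -3.71, SE 0.93, adjusted p = 0.324). Xbp1, a plasma cell transcription factor, read 196 to 433 in WT and 458 to 854 in IL6KO (log2 fold change 0.95, SE 0.36, adjusted p = 0.461). Tent5c, which gave most of the summed plasma cell list, lay the other way with overlapping groups. It read 3685 to 5370 in WT and 1257 to 4917 in IL6KO (log2 fold change -0.79, SE 0.41, adjusted p = 0.579). Slamf7 read 11.4 to 18.5 in WT and 0 to 1.53 in IL6KO, below the mean for testing. The part of each cell type in the stromal immunoglobulin signal was not tested. Of the lists for the pre-B cell receptor, V(D)J recombination, class switching and transcription factors, 0 genes passed in stroma by limma, and 1 gene, of V(D)J recombination, had an unadjusted p under 0.05.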

How the data were processed

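Total RNA from the sorted cells was made into libraries by the authors with a directional, ribosomal RNA-depleting kit and sequenced as 75-nt reads. Per the paper's methods and the labels, the authors quantified transcripts with Salmon 1.3.0 against mm10 and normalized gene counts with DESeq2 1.28.1. The annotation release and the strand setting are not given in the sources used here. The deposited values are therefore a normalized signal, not counts, in 1 table per compartment, and the deposited tables of the authors' own fold changes and p-values were not used.

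Host genotypes were compared within each compartment with limma 3.58.1 (R 4.3.3) on log2(normalized count + 1) over genes with a mean above 10, with variances following the mean and two-sided p-values adjusted by Benjamini-Hochberg over all genes tested. Fold changes are on that log2 scale, which understates changes of low genes. Levels per kb used the longest GENCODE vM21 transcript, and shares and sums have no test. Scripts were tested on simulated data. Symbols came from identifiers: 15069 of the 15080 tumor and 13338 of the 13344 stroma genes matched. Text names constant genes, Jchain, the 5 leading V genes per locus, members under an adjusted p of 0.05 and up to 3 genes per related list. Members, lists and tests were chosen with earlier results of these data known. Replicate numbers showed no sign of pairing WT with IL6KO libraries (correlations of same-numbered deviations between -0.019 and -0.00028 in tumor and between -0.029 and 0.126 in stroma). Such correlations over all genes cannot exclude shared processing. Pairing of tumor with stroma libraries by number was not examined. Some results for genes of class switching and somatic mutation are not reported here.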

Additional observations from a re-analysis of the deposited data

Results flagged for a closer look

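In 9 of 122 groups of 4 libraries, a single library stood apart from the others by a gap over Dixon's 95% critical value, where chance flags about 1 in 20 groups. Among V genes in WT tumor, replicate 2 was high for Ighv5-6 (132 normalized counts, the next being 16.1) and for Ighv8-9 (34.2, the next being 9.89). In IL6KO tumor, replicate 3 was high for Ighv1-58 (27.7), replicate 1 was low for Ighv1-50 (14.5), and replicate 4 was low for Ighv5-21 (3.17). Ighd per 100 Ighm, per kb, was low in WT tumor replicate 1 (2.63) and high in IL6KO tumor replicate 3 (2.92), the libraries through which the groups overlapped. In stroma, Ighd was at 0 in IL6KO replicate 1 and at 12.1 to 14.2 in the others, and Igkc per 100 Ighm was 150 in WT replicate 1 against 57.3 to 67.2 in the other WT libraries.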

How the results depend on the processing

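The 5 immunoglobulin genes called in tumor became 3 after quantile normalization and 2 with the replicate block, a fit given only because the labels share replicate numbers, and between 1 and 3 when a library was left out. The cause was not tested, though fewer libraries and residual degrees of freedom enter some of these fits. Other alternatives gave 4 to 7, and stroma gave 0 throughout. The 7 came without a trend of variance on level, and all of them fell. That set lacked Ighv14-1 and Ighd, so it was not the 5 with others added. Quantile normalization turned the log2 fold changes of Ighm (-0.0557), Jchain (0.1786) and Ighv1-72 (0.0401), none of which passed any test, and leaving out libraries spanned -0.0034 to 0.0662, -0.7276 to 0.0769 and -0.5913 to 0.0569 for them. Without division by length, Ighv14-1 held 30.128% of heavy V signal in IL6KO and Ighm 92.885% and 94.563% of heavy constant signal in WT and IL6KO tumor. On that scale Igkc stood at 0.27956 and 0.22002 per 100 Ighm in WT and IL6KO tumor and at 26.009 and 20.449 in stroma. With only genes of a mean above 10, Igkv14-111 held 85.004% of kappa V signal in IL6KO tumor. Igkv14-111 was called under every alternative run, Ighd under 7 of 8, Ighv14-1 and Ighv1-7 under 6 of 8 each and Ighv5-21 under 5 of 7, besides the fits with a library left out. With the replicate block, Ighv14-1, Ighv1-7 and Ighv5-21 were the calls lost. Low V genes rested on few reads per library, which limits the precision of their fold changes.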
